A study of Mus musculus with 8 samples.

Results

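The expression arrays described here came from mouse stromal cells that carried a control lentiviral vector, and the comparison set replicate 2 against replicate 1 within each vector. The cells were mesenchymal stromal cells of the inguinal fat pad of male FVB mice aged 12 months, grown in high-glucose medium with serum. They carried the pLKO.1 backbone either empty or with a scrambled hairpin, and the study used them as controls for a hairpin against Irf7, a transcription factor of the interferon response. There was 1 array of each vector in each replicate, so the comparison used 4 of the 8 arrays of the series, 2 a side, and no array of the Irf7 hairpin. It covered the 19572 of 28846 probe sets that had exactly 1 gene symbol, which stood for 19505 genes.

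The labels do not say whether the replicates were separate cultures, infections or animals, at which passage or density the cells were taken, or what a replicate number stands for. The p-values therefore cover only the scatter among these 4 arrays, and that scatter may be technical. No growth rate was used here, so any statement on division rests on transcripts alone. The arrays held bulk RNA, in which fewer cells of a type and less RNA per cell cannot be told apart.

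Stromal cells in culture move between a dividing and a resting state. A cell that enters the cycle makes nucleotides, ribosomes, chaperones and nuclear components for its daughter cell as well as copying its DNA. A resting fibroblast keeps cyclin-dependent kinases inhibited, holds FoxO factors in the nucleus, turns over its content through lysosomes and secretes matrix and serum-binding proteins. Immediate-early genes are a further group, transcribed within minutes of a stimulus such as serum and then shut off.

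The arrays were alike in overall level. Probe sets with a symbol had array medians of 5.35 to 5.45 on the log2 scale, and 32.7% to 35.3% of them exceeded the 95th percentile of that array's negative control probe sets, taken here as background. A gene called dim below did not exceed it on any of the 4 arrays, so no size is given for its difference. Where both arrays of 1 replicate were below it, the difference has only a bound and is given as at least N-fold, and a gene that exceeded it on 1 array gets no size. Negative controls had medians of 4.21 and 4.26 in replicate 1 and of 4.55 and 4.56 in replicate 2, so this offset and the replicate number cannot be told apart. The replicate 2 arrays of both vectors correlated at 0.996 over genes and the replicate 1 arrays at 0.989, and the SD of scramble minus empty vector was 0.55 in replicate 1 and 0.33 in replicate 2. Of 82 markers of macrophages, lymphocytes, endothelium, pericytes, epithelium, nerve and muscle, 2 exceeded background on 2 or more arrays. The means of these marker lists lay between 3.41 and 5.05 in replicate 1 and between 3.48 and 5.10 in replicate 2. Among stromal markers, Eng, a TGF-beta co-receptor, was abundant, with values of 15.004 and 14.22 in empty vector and 14.65 and 14.53 in scramble (replicate 1 first, here and below). Thy1 measured 9.54 and 7.60 in empty vector and 8.97 and 7.59 in scramble, and Nt5e was below background on all arrays. Irf7 itself measured 9.55 and 9.61 in empty vector and 9.56 and 9.76 in scramble and did not pass the test (difference 0.13, SE 0.25, limma adjusted p = 0.803).

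Replicate 2 differed from replicate 1 in a large share of the transcriptome, and both vectors mostly moved the same way. A difference is replicate 2 minus replicate 1 on the log2 scale, and a gene is said to have risen or fallen where its mean difference over both vectors passed limma's test at an adjusted p under 0.05. By this rule 2013 genes rose (10.3% of 19505) and 1626 fell (8.34%). Among the 6929 genes above background on 2 or more arrays 20.8% rose and 14.1% fell. List counts near these shares are no result about the list. With each array centred on its negative controls the calls were 1110 higher and 2979 lower, so that 27.1% of the calls were higher against 55.3% before. A fit without the vector term called 1614 genes. A fit of 3 arrays cannot hold that term, so leaving out an array changed both, and its base is the 1614. No gene was then called without either replicate 2 array (0 genes; at an unadjusted p under 0.05, 2760 passed without the empty vector array and 2727 without the scramble array). Without empty vector replicate 1, 1349 genes were called, and without scramble replicate 1, 3913. Of the 50 gene programs described below 39 held over 1.5 times as many calls with the vector term as without it. Of the 43 programs with rises 23 held over 1.5 times as many of them before negative-control centring as after it. With 2 arrays a side an exact permutation test of a single gene cannot give a two-sided p under 0.333, so each call leans on the spread that limma shared across genes.

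A stricter description asked for a difference of at least 1 on the log2 scale, a 2-fold change, in each vector separately. In both vectors 929 genes were higher by that size (4.76% of all genes) and 632 lower (3.24%), against 2 genes that were higher in empty vector and lower in scramble and 2 the other way round (0.0103% each). Of the 3480 genes that differed by 1 or more in empty vector, 94.6% differed in the same direction in scramble and 44.9% by 1 or more there. Of the 2055 in scramble, 96.1% had the same direction in empty vector and 76.0% reached 1. The differences in both vectors correlated at Pearson's r = 0.76 and Spearman's rho = 0.61 over 19505 genes. Genes are not independent replicates. Both replicate 2 arrays lay above both replicate 1 arrays for 26.6% of all genes and below them for 29.8%. Among the 1561 genes past 1 in both vectors the scramble difference was a median 0.75 of the empty vector difference, and 83.0% were larger in empty vector. The cell-cycle lists held 100 of the 929 higher genes and 1 of the 632 lower genes, and 680 of the 929 were in none of the lists used here.

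**Figure D1:**
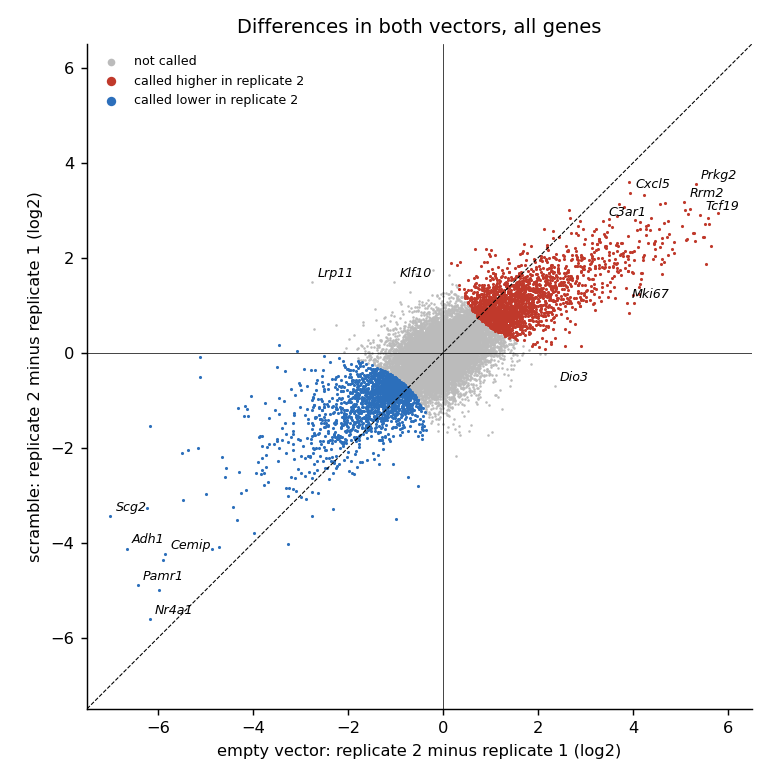
Each point is 1 of 19505 genes, with its replicate 2 minus replicate 1 difference (log2) in empty vector on the x axis and in scramble on the y axis; red and blue mark genes called higher (2013) and lower (1626), and the dashed line marks equal differences. Called genes fill the lower left and the upper right of the plot. Of the 1561 genes past 1 in both vectors 83.0% had the larger difference in empty vector.

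Cell-cycle genes set the frame for the rest. Of 39 measured genes of DNA replication 36 rose and 0 fell, with list medians of 3.14 in empty vector and 1.96 in scramble, where the medians of all genes were -0.04 and -0.02. Of 46 mitotic genes 46 rose (medians 3.90 and 1.93) and of 22 replication-dependent histones 20 (2.59 and 1.02). Of 19 G1 regulators and E2F factors 13 rose (medians 1.66 and 1.70). Histone genes are near-identical copies, so which of them carried the signal is uncertain. Mki67, the antigen used to mark cycling cells, measured 10.83 and 14.69 in empty vector and 13.71 and 14.75 in scramble (difference 2.45, SE 0.44, limma adjusted p = 0.001). It was already abundant in replicate 1 of both vectors. Mybl2, a partner of the mitotic gene complex, measured 5.78 and 9.70 in empty vector and 6.49 and 10.08 in scramble (at least 3.33-fold higher, limma adjusted p = 5.15e-07). In the G1 list 1 gene fell, Rbl2, which encodes the p130 pocket protein of resting cells and was named after its values were seen (-2.38 and -1.29 in empty vector and scramble). In the fit without a vector term 22 and 2 mitotic and histone genes were called, and with empty vector replicate 1 also left out 43 and 6.

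Outside the cell-cycle lists, the largest rises shared by both vectors mixed further division genes with a kinase, a chemokine and a receptor. Prkg2, a cGMP-dependent protein kinase, came first, at 6.18 and 11.50 in empty vector and 7.45 and 11.002 in scramble (at least 8.56-fold higher, limma adjusted p = 1.67e-06). Cxcl5, a chemokine that attracts neutrophils, measured 5.99 and 9.93 in empty vector and 7.15 and 10.51 in scramble (limma adjusted p = 9.5e-07). C3ar1, the receptor for the complement fragment C3a, measured 6.71 and 10.08 in empty vector and 6.68 and 9.45 in scramble (limma adjusted p = 3.52e-06). In Cxcl5 and C3ar1 too the replicate 1 arrays were at background, and the rises were at least 4.19-fold and 3.06-fold.

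Rrm2, the small subunit of ribonucleotide reductase, was bright on all 4 arrays, at 9.43 and 14.51 in empty vector and 11.68 and 14.85 in scramble (difference 4.13, SE 0.35, limma adjusted p = 3.52e-06). The spindle and kinetochore genes Tacc3, Ska3, Spag5 and Trip13 were below background on both replicate 1 arrays and were at least 2.64-fold, 3.52-fold, 5.54-fold and 7.42-fold higher. The centromere gene Hjurp, the fork protein gene Timeless and the histone chaperone gene Asf1b had mean differences of 3.45, 3.41 and 3.75, and Hjurp and Timeless exceeded background on 1 of the 2 replicate 1 arrays. For these 7 genes limma's adjusted p was at most 6.9e-06. These division genes sit outside the cell-cycle lists only because the lists did not name them. Cpsf4, a polyadenylation factor, measured 6.25 and 9.75 in empty vector and 6.85 and 9.68 in scramble, and Nup43, a nuclear pore subunit, 7.39 and 10.27 in empty vector and 7.65 and 10.42 in scramble (at least 2.95-fold and 4.56-fold higher). Tcf19, a gene of G1 and S phase cells, measured 6.02 and 11.42 in empty vector and 8.65 and 11.54 in scramble (difference 4.15, SE 0.41, limma adjusted p = 9.5e-06). For each of the 15 genes both replicate 2 arrays were above both replicate 1 arrays. The genes were ranked by size on these same arrays, so this separation largely follows from the ranking.

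**Figure D2:**
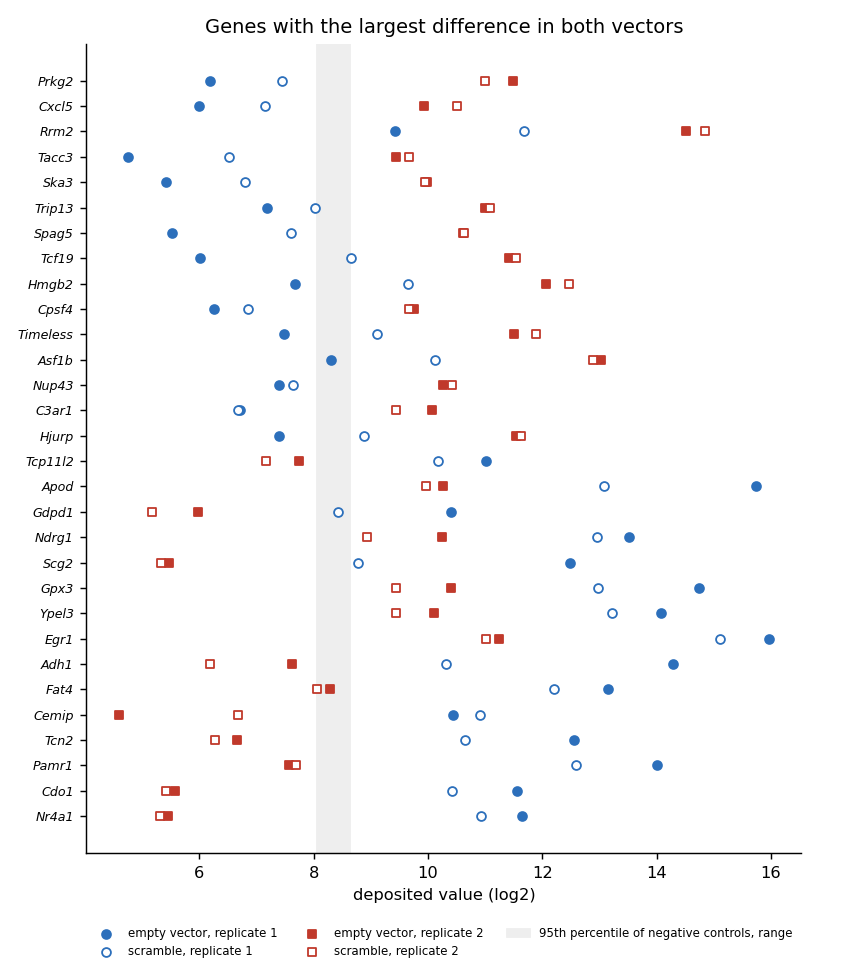
Deposited log2 values of the 15 genes with the largest shared rise (top) and the 15 with the largest shared fall (bottom) outside the cell-cycle lists, 1 point per array; circles are replicate 1, squares replicate 2, filled symbols empty vector and open symbols scramble, and the grey band spans the 95th percentiles of the negative controls on the 4 arrays. For Prkg2 both replicate 1 values lie below the band, and for Nr4a1 both replicate 2 values do.

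Enzymes that supply nucleotides rose almost as a block. Of 22 measured members 20 rose and 0 fell (medians 2.001 in empty vector and 1.35 in scramble). Besides Rrm2 they included Umps, which completes uridine monophosphate, with differences of 2.81 in empty vector and 1.97 in scramble, and Gart, a trifunctional enzyme of purine synthesis (2.82 and 1.83). Tk1, the salvage thymidine kinase, was among them but dim. Of 21 genes of homologous recombination and the Fanconi pathway, which repair broken and crosslinked DNA, 20 rose and 0 fell (medians 3.05 and 1.98). Brca1 measured 5.29 and 9.41 in empty vector and 6.41 and 8.77 in scramble (at least 1.91-fold higher, limma adjusted p = 1.35e-05), and Fancb, a core subunit of the Fanconi ligase, 5.23 and 9.51 in empty vector and 6.92 and 9.58 in scramble (at least 2.63-fold higher, limma adjusted p = 6.84e-06). Of the 21 repair genes 11 exceeded background on 2 or more arrays, some of them in replicate 2 only.

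Proteins of the nuclear envelope, pores and chromatin rose with them. Of 24 members 20 rose and 0 fell (medians 1.72 in empty vector and 1.34 in scramble). Hmgb2, a DNA-bending chromatin protein, measured 7.68 and 12.06 in empty vector and 9.65 and 12.48 in scramble (difference 3.60, SE 0.32, limma adjusted p = 4.89e-06). Hells, a remodeller needed for DNA methylation, measured 8.32 and 11.86 in empty vector and 9.55 and 12.20 in scramble, and Nup133, a pore scaffold subunit, 9.09 and 11.71 in empty vector and 9.44 and 11.61 in scramble (limma adjusted p = 4.89e-06 and 1.62e-05). The scramble replicate 1 array lay between the empty vector replicate 1 array and the replicate 2 arrays for Hmgb2, Hells and Nup133.

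Growth machinery that is not specific to division rose too. Of 28 genes of ribosome biogenesis and Myc targets 21 rose and 0 fell (medians 1.56 in empty vector and 1.18 in scramble). Dkc1, the pseudouridine synthase of ribosomal RNA, measured 6.84 and 9.69 in empty vector and 7.69 and 10.18 in scramble (at least 3.43-fold higher, limma adjusted p = 6.9e-06). The nucleolar genes Nop2 and Ddx21 had differences of 2.28 and 1.85 and of 2.42 and 1.78 in empty vector and scramble, and Nolc1 was at least 2.93-fold higher. Of 21 spliceosome and RNA-binding genes 16 rose and 0 fell (medians 1.45 and 1.01), led by Lsm2, part of the U6 snRNP ring (at least 2.25-fold), and Snrpf, a Sm ring protein (above background on 1 array).

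Of 18 aminoacyl-tRNA synthetases, which charge tRNAs with amino acids, 16 rose and 0 fell (medians 1.30 in empty vector and 1.05 in scramble). Tars, for threonine, measured 13.13 and 14.97 in empty vector and 13.71 and 15.04 in scramble, and Farsa, a subunit for phenylalanine, 10.09 and 11.51 in empty vector and 10.01 and 11.27 in scramble (limma adjusted p = 0.000435 and 0.00123). For both genes the 2 replicates did not overlap, which their choice by size on these same arrays largely implies. Translation factors were more divided: 7 of 16 rose and 0 fell, with Eif3b and Eif5a called and the abundant elongation factors Eef1a1 (-0.14 and -0.08) and Eef2 (-0.23 and -0.04), named after their values were seen, not called. Of 25 mitochondrial ribosome genes 7 rose and 0 fell.

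Protein turnover and folding split by compartment. Of 26 proteasome subunits 16 rose and 0 fell (medians 1.06 in empty vector and 0.72 in scramble). Psmd14, the deubiquitinase of the proteasome lid, measured 9.55 and 12.09 in empty vector and 10.88 and 12.12 in scramble, and Psmd3 12.58 and 14.47 in empty vector and 13.09 and 14.45 in scramble (limma adjusted p = 0.000367 and 0.00036). Of 18 heat shock proteins and chaperonin subunits 6 rose, among them the mitochondrial chaperonin gene Hspd1 (2.25 and 1.61 in empty vector and scramble). In this list 1 gene fell, Hspb1, a small heat shock protein that binds actin, at 11.47 and 8.26 in empty vector and 11.62 and 8.99 in scramble (difference -2.92, SE 0.26, limma adjusted p = 4.89e-06). Lysosomal genes moved the other way, as described below. With negative-control centring 9, 9 and 15 synthetase, proteasome and ribosome biogenesis genes were called higher and 0 lower. Without the vector term 8, 10 and 15 synthetase, proteasome and ribosome biogenesis genes were called, and with empty vector replicate 1 also left out 6, 6 and 16.

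**Figure D3:**
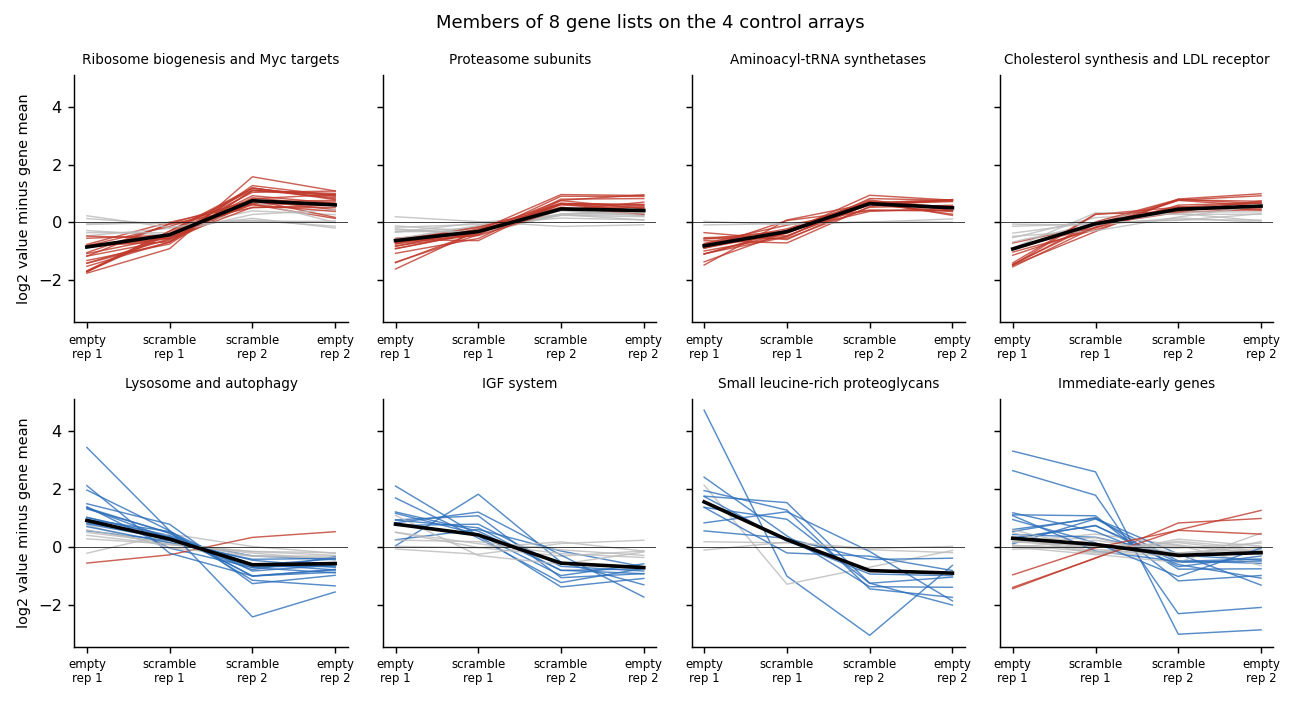
Values of every measured member of 8 gene lists on the 4 control arrays, each gene shown as a line of its log2 value minus its mean over the arrays; red and blue lines are genes called higher and lower in replicate 2, grey lines were not called, and the black line is the list median (the order of arrays on the x axis is not a time course). The upper 4 lists have black lines that are higher on both replicate 2 arrays, and the lower 4 lists have black lines that are lower there.

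Among metabolic lists, glycolytic enzymes rose in part, with 8 of 19 called and 0 lower (medians 0.68 in empty vector and 0.50 in scramble). Ldha, which makes lactate, measured 14.54 and 16.24 in empty vector and 15.25 and 16.20 in scramble, and Pgam1 12.69 and 14.58 in empty vector and 13.45 and 14.53 in scramble (limma adjusted p = 0.00222 and 0.00106). In the fit without a vector term 3 glycolytic genes were called higher, 2 with empty vector replicate 1 also left out, and 4 higher and 1 lower with negative-control centring. In the TCA cycle 3 of 16 rose (18.8%, against 20.8% of all genes above background on 2 or more arrays): Idh3a, an isocitrate dehydrogenase subunit (2.69 and 1.60), citrate synthase Cs (1.31 and 0.70) and Pdha1, which feeds the cycle (1.48 and 0.92). Of 34 respiratory chain genes 4 rose (11.8%, against the same 20.8%), namely the cytochrome genes Cycs and Cyc1 and the subunit genes Ndufs1 and Sdhd. In this list 1 fell, Cox4i1 (named after its values were seen, -1.19 and -0.48). Medians of the respiratory list were 0.12 and -0.01, and 0 of its genes were called higher without the vector term.

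Sterol and amino acid supply rose mainly in empty vector. Of 19 genes of cholesterol synthesis and uptake 12 rose and 0 fell, with medians of 1.43 in empty vector and 0.47 in scramble. Sqle, the squalene epoxidase, measured 10.65 and 13.12 in empty vector and 11.82 and 12.94 in scramble, and Idi1, the isopentenyl diphosphate isomerase, 10.88 and 13.34 in empty vector and 12.26 and 13.19 in scramble (limma adjusted p = 0.00059 and 0.00137). Both replicate 2 arrays were above both replicate 1 arrays for Sqle and Idi1, with scramble replicate 1 nearer to replicate 2. Both genes were picked by size on these same arrays, so the separation largely follows from the choice. Fatty acid genes were called higher in 2 of 13 cases, Elovl6 and Acaca (15.4%, against 20.8% of genes above background on 2 or more arrays).

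Of 28 Atf4 targets and genes of amino acid supply 13 rose and 2 fell (medians 1.22 and 0.20 in empty vector and scramble). Cth, which makes cysteine, measured 5.53 and 9.18 in empty vector and 7.07 and 8.96 in scramble (at least 1.89-fold higher, limma adjusted p = 4.3e-05). The serine synthesis genes Psat1 (2.83 and 1.43) and Phgdh (2.22 and 1.24) and the cationic amino acid transporter Slc7a1 (2.84 and 1.07) rose with it. The 2 that fell, named after their values were seen, were Atf3 (above background on 1 array) and the glutamine transporter gene Slc1a5 (-1.41 and -0.77). Of 20 genes of the unfolded protein response and ER folding 9 rose, led by Creld2 (2.43 and 1.43) and the chaperone Hspa5 (1.81 and 0.98). The sensors Ern1 and Atf6, named after their values were seen, did not pass. With negative-control centring 6, 7 and 3 cholesterol, Atf4 and ER genes were called higher and 0, 3 and 1 lower. Without the vector term 0, 4 and 1 cholesterol, Atf4 and ER genes were called higher, and with empty vector replicate 1 also left out 1, 5 and 1.

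The largest falls shared by both vectors outside the cell-cycle lists included the immediate-early genes Nr4a1 and Egr1. Nr4a1, an orphan nuclear receptor induced within minutes of a stimulus, measured 11.64 and 5.46 in empty vector and 10.92 and 5.31 in scramble (at least 6.29-fold lower, limma adjusted p = 1.1e-08), with both replicate 2 values below background. Egr1, a zinc finger factor of the same class, fell from a very high level and stayed above background, at 15.96 and 11.24 in empty vector and 15.11 and 11.02 in scramble (difference -4.41, SE 0.26, limma adjusted p = 1.61e-07). Both replicates were well apart for these 2 genes in both vectors, which their ranking by size largely implies.

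Cdo1, which oxidises cysteine, measured 11.55 and 5.57 in empty vector and 10.42 and 5.42 in scramble, and Pamr1, a secreted protein with a peptidase-like domain, 14.000 and 7.56 in empty vector and 12.60 and 7.70 in scramble (limma adjusted p = 1.27e-07). Pamr1 was at least 25.5-fold lower and Cdo1 at least 5.11-fold. Adh1, an alcohol and retinol dehydrogenase, measured 14.28 and 7.62 in empty vector and 10.32 and 6.19 in scramble (at least 12.7-fold lower, limma adjusted p = 1.67e-06). Apod, a lipocalin made by arrested fibroblasts, measured 15.75 and 10.26 in empty vector and 13.08 and 9.97 in scramble, and Gpx3, the secreted glutathione peroxidase, 14.74 and 10.40 in empty vector and 12.98 and 9.45 in scramble (limma adjusted p = 6.05e-06 and 6.15e-07).

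The atypical cadherin gene Fat4, the cobalamin carrier gene Tcn2 and the hyaluronan-degrading Cemip were at least 16.5-fold, 7.88-fold and 4.15-fold lower. Scg2, a secretogranin, measured 12.48 and 5.47 in empty vector and 8.78 and 5.33 in scramble (at least 4-fold lower, limma adjusted p = 1.08e-05). Ndrg1, a growth-arrest and stress gene, measured 13.51 and 10.24 in empty vector and 12.96 and 8.94 in scramble (limma adjusted p = 1.18e-06), and its difference was larger in scramble (-4.03) than in empty vector (-3.27). Ypel3 measured 14.08 and 10.10 in empty vector and 13.23 and 9.43 in scramble, while Gdpd1, a phosphodiesterase of lysophospholipids, and Tcp11l2 were at least 1.73-fold and 3.92-fold lower. With trend and robust fitting Adh1, Apod, Scg2, Tcf19 and Mki67 did not pass.

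Genes of growth arrest fell as a group. Of 24 measured members of the quiescence list 16 fell and 1 rose (medians -1.17 in empty vector and -0.95 in scramble). Pik3ip1, an inhibitor of PI3 kinase, measured 12.73 and 8.996 in empty vector and 11.49 and 9.07 in scramble (difference -3.08, SE 0.30, limma adjusted p = 8.86e-06). Btg2, an antiproliferative gene, measured 8.49 and 5.43 in empty vector and 8.56 and 6.11 in scramble, and Gas6, a growth-arrest ligand of the Axl receptors, 16.02 and 12.20 in empty vector and 15.27 and 13.05 in scramble (limma adjusted p = 6.85e-06 and 1.68e-05). Selenop, a secreted selenium carrier, had differences of -2.74 in empty vector and -2.01 in scramble. The 1 gene that rose was Tob2, named after its values were seen (above background on 1 array).

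Among inhibitors of cyclin-dependent kinases few genes were called. Of 17 inhibitors and senescence regulators 2 rose and 2 fell (11.8% each, against 10.3% and 8.34% of all genes). In both vectors 5 were higher and 8 lower. With negative-control centring 2 were called higher and 6 lower, and with trend and robust fitting 2 and 4. The 2 that fell in the main fit were Cdkn2a, which encodes the p16 and p19ARF proteins and was dim, and Tbx3, a repressor of that locus (above background on 1 array). Cdkn2d, the p19 inhibitor that is itself cyclic, rose (at least 3.42-fold), as did the urokinase receptor gene Plaur (2.97 and 1.98). Cdkn1a and Cdkn1b, named after their values were seen, had differences of -0.38 and -1.10 and of -0.47 and -0.47 and did not pass (limma adjusted p = 0.0671 and 0.232).

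Targets of p53 were divided, with 4 of 24 higher (16.7%) and 6 lower (25%). Among all genes above background on 2 or more arrays 20.8% rose and 14.1% fell. Trp53inp1 measured 11.22 and 7.99 in empty vector and 10.53 and 7.67 in scramble and Gadd45a 11.24 and 7.39 in empty vector and 9.09 and 7.33 in scramble (at least 4.74-fold and 2.9-fold lower). Ddit4, an inhibitor of mTORC1, was higher, at 8.55 and 12.11 in empty vector and 10.17 and 11.74 in scramble (limma adjusted p = 0.000129).

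Genes of the insulin-like growth factor system fell, among them receptors, adaptors, a ligand and a protease, with nearly equal list medians in both vectors. Of 16 measured members 10 fell and 0 rose (medians -1.46 in empty vector and -1.39 in scramble). The adaptor gene Irs1 measured 11.26 and 8.06 in empty vector and 9.54 and 7.77 in scramble (at least 3.41-fold lower, limma adjusted p = 5.04e-05). The ligand gene Igf2 passed the test but was dim, at 6.85 and 4.99 in empty vector and 6.99 and 4.85 in scramble. Irs2, the second adaptor, was at least 2.15-fold lower, and Pappa, a protease that frees IGF from its binding proteins, at least 1.14-fold. The receptors Igf1r, Igf2r and Insr, named after their values were seen, fell by 1.74, 1.59 and 1.58 on the log2 scale (limma adjusted p = 0.000285, 0.000365 and 0.000353). Of the 16 members 11 exceeded background on 2 or more arrays. In the fit without a vector term 5 and 9 IGF and quiescence genes were called lower, and with empty vector replicate 1 also left out 6 and 9.

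Lysosomal and autophagy genes fell, opposite to the proteasome. Of 24 members 17 fell and 1 rose (medians -1.47 in empty vector and -0.84 in scramble). Gpnmb, a lysosomal membrane glycoprotein, measured 12.86 and 7.86 in empty vector and 9.98 and 7.000 in scramble, and Map1lc3b, which encodes the autophagosome protein LC3B, 14.56 and 12.09 in empty vector and 13.85 and 11.80 in scramble (Gpnmb at least 6.92-fold lower; limma adjusted p = 5.34e-06 and 2.34e-05). Naglu, an enzyme of heparan sulfate breakdown, measured 12.35 and 9.04 in empty vector and 10.94 and 9.23 in scramble, and Ctsl, a cathepsin, 15.06 and 12.97 in empty vector and 14.24 and 12.74 in scramble (limma adjusted p = 6.63e-05 and 0.000175). For these 4 genes every replicate 1 value lay above every replicate 2 value, as for 29.8% of all genes. They were picked from the list by size on these same arrays, so this separation largely follows from the choice. The 1 gene that rose, Gla, an alpha-galactosidase, was named after its values were seen (1.08 and 0.60), and the regulator gene Tfeb, chosen in the same way, did not pass (dim). Without the vector term 8 were called lower, and with empty vector replicate 1 also left out 8.

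Matrix genes fell by class rather than throughout. Of 12 small leucine-rich proteoglycans, which coat collagen fibrils, 9 fell and 0 rose (medians -2.56 in empty vector and -1.26 in scramble). Dcn, decorin, measured 15.84 and 10.47 in empty vector and 10.10 and 8.05 in scramble (difference -3.71, SE 0.50, limma adjusted p = 9.44e-05). Prelp measured 15.79 and 12.02 in empty vector and 15.56 and 12.78 in scramble and Omd 14.86 and 11.16 in empty vector and 14.18 and 11.46 in scramble. For decorin the groups overlapped, since scramble replicate 1 was below empty vector replicate 2, while for Prelp and Omd they did not. Prelp and Omd were picked by size on these same arrays, which largely implies this.

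Of 30 matrix glycoproteins 12 fell, among them the perlecan gene Hspg2 (-2.87 and -1.79), the microfibril gene Mfap5 (-2.42 and -1.88) and Thbs1, thrombospondin (-1.91 and -1.56). The 1 that rose, named after its values were seen, was versican, Vcan (2.23 and 0.86). Of 20 collagens 3 fell (15%, against 14.1% of genes above background on 2 or more arrays) and 0 rose. Their medians were -0.61 in empty vector and -0.11 in scramble, with 12 lower and 3 higher in both vectors. With negative-control centring 5 were called lower, and with the filter on dim genes 0. Col1a1 and Col1a2, the chains of type I collagen, were named after their values were seen. They had differences of -0.57 and -0.24 and of -0.37 and -0.15 (limma adjusted p = 0.333 and 0.569). Among 17 collagen-processing genes 2 rose (11.8%) and 1 fell (5.88%).

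Of 21 matrix proteases and inhibitors 11 fell and 1 rose. Mmp3, stromelysin, exceeded background on empty vector replicate 1 only, at 11.05 and 4.87 in empty vector and 6.17 and 4.61 in scramble (limma adjusted p = 0.000581), and Mmp2, a gelatinase, measured 15.43 and 13.34 in empty vector and 14.20 and 12.89 in scramble (limma adjusted p = 0.000345). Timp1, an inhibitor of these enzymes, was the 1 that rose (1.65 and 1.07). Of 21 integrin and adhesion genes 6 fell, with Itgb3 (at least 1.72-fold) and Itga11 (-1.23 and -1.33), and Cd44, the hyaluronan receptor, rose (1.85 and 0.85). In the fit without a vector term 3, 6 and 4 proteoglycan, glycoprotein and protease genes and 0 collagens were called lower, and with empty vector replicate 1 also left out 5, 4 and 4.

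Promoter sequences are shown for 4 of these genes, 1 each from the chromatin, repair, lysosome and immediate-early lists. They were chosen because their window holds a motif that is known for genes of their class, so holding it is no finding. Each window is 300 bases, from 250 before the start of the gene to 50 after, from RefSeq on GRCm38.p6, and capitals mark the motif named for that window, searched on both strands. Motifs were the CCAAT box (CCAAT) and the CHR element (TTTGAA) of mitotic promoters, the E2F site (TTTCCCGC or TTTGGCGC), the E-box (CACGTG) that TFEB-type factors bind, and the core motif (TGACG) of the cyclic AMP response element.
Hmgb2: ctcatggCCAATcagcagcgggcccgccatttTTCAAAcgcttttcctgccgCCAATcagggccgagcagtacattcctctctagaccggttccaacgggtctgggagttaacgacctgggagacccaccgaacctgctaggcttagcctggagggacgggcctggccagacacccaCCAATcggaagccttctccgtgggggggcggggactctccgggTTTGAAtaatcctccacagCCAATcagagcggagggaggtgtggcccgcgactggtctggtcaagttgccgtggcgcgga
Brca2: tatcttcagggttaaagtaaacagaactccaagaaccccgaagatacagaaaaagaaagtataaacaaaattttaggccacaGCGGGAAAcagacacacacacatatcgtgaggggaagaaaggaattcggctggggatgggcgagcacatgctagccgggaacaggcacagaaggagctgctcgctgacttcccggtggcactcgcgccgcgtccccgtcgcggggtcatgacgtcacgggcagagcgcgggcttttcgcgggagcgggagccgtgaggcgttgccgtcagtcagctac
Naglu: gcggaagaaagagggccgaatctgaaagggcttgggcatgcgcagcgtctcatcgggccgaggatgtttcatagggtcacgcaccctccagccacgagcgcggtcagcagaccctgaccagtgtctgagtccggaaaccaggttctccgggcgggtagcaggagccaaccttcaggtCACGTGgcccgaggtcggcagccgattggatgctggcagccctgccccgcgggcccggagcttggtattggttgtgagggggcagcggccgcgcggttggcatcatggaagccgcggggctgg
Nr4a1: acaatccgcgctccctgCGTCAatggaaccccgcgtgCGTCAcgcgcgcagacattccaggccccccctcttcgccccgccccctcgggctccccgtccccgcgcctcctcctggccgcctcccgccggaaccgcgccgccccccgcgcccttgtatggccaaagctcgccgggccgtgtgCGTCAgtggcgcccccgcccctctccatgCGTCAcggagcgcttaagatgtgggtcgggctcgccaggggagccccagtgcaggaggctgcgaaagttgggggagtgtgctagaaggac
The Hmgb2 window (chr8:57511593-57511892, plus strand) held 4 CCAAT boxes and 2 CHR elements. The window of Brca2, which loads the recombinase on broken DNA, held 1 E2F site (chr5:150522371-150522670, plus strand). Brca2 measured 6.55 and 8.96 in empty vector and 7.93 and 8.88 in scramble (at least 1.7-fold higher, limma adjusted p = 0.00127). The Naglu window (chr11:101069844-101070143, plus strand) held 1 E-box and the Nr4a1 window (chr15:101266596-101266895, plus strand) 4 core motifs. A match describes the letters and is not evidence of binding.

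Over all measured genes with a window (15691 genes and 19143 windows), the CHR element was in 15.3% of windows, the CCAAT box in 37.9%, either E2F form in 2.13%, the E-box in 8.11% and the core motif in 24.4%. The mitosis list held a CHR element in 75.6% and a CCAAT box in 73.2% of windows, and the replication list an E2F site in 29.4%. Genes that were at least 1 higher in both vectors but outside the cell-cycle lists had CCAAT boxes in 47.9%, CHR elements in 19.4%, E2F sites in 6.91% and core motifs in 37.9% of windows. Genes at least 1 lower in both vectors had them in 32.7%, 10.7%, 1.92% and 25.7%. The higher set still held division genes that the cell-cycle lists did not name, so its shares are not those of genes unrelated to division. It also held repair genes, and the windows of the repair list had CCAAT boxes in 56.5% and E2F sites in 17.4%. Lysosomal genes held an E-box in 28% of windows (7 of 25). The ribosome biogenesis and Myc list, which rose, held it in 21.7% (5 of 23). These shares are descriptions and carry no test.

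**Figure D4:**
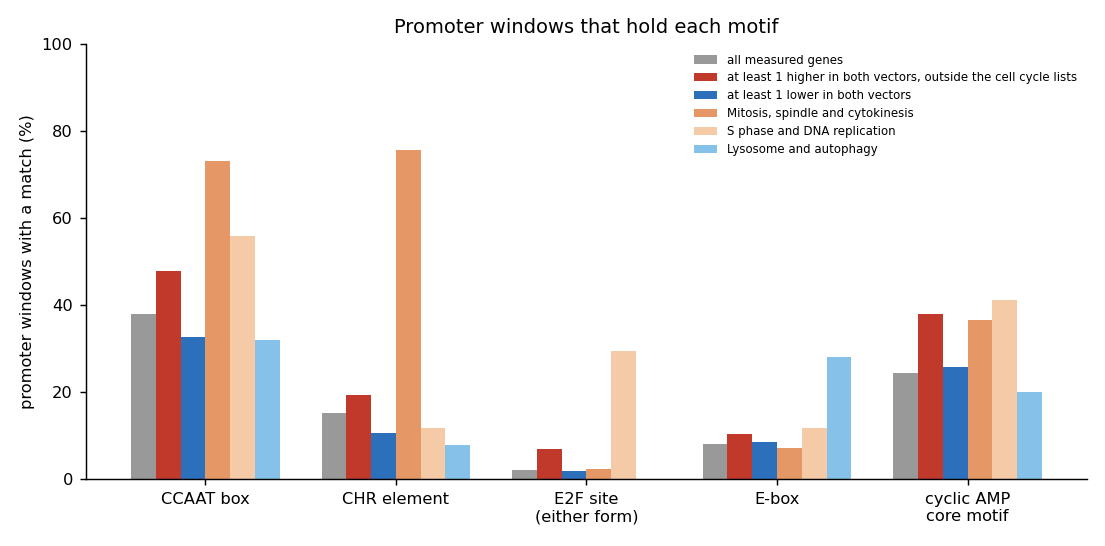
Share of 300-base promoter windows (%) that hold each motif on either strand, for all measured genes (grey), genes at least 1 higher in both vectors outside the cell-cycle lists (red), genes at least 1 lower in both vectors (blue), and 3 gene lists. The CHR element stands out in the mitosis list (75.6% against 15.3% of all windows). Among the sets shown, the E-box has its highest share in the lysosome list (28.0% against 8.11%).

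Beyond Nr4a1 and Egr1, signalling lists held falls in shares that ranged from well above to near those of all genes. For comparison, 8.34% of all genes fell, and 14.1% of those above background on 2 or more arrays. Of 28 immediate-early and MAP kinase feedback genes 12 fell (42.9%) and 3 rose. Egr2 measured 13.51 and 11.41 in empty vector and 13.48 and 11.23 in scramble (difference -2.17, SE 0.25, limma adjusted p = 2.61e-05), and Egr3 fell but was dim. Fos and Jun encode the AP-1 pair and were named after their values were seen: Fos fell but was dim, and Jun had differences of -0.42 and 0.04 and did not pass (limma adjusted p = 0.707). The 3 that rose, chosen in the same way, were Fosl1 (2.38 and 1.22), Etv4 (dim) and Phlda1 (1.41 and 0.60). The list held falls of early-induced factors beside these 3 rises, and kinase signalling itself was not measured.

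Of 20 Notch and Hedgehog genes 7 fell (35%) and 0 rose, with nearly equal medians of -0.47 in empty vector and -0.47 in scramble. Jag1, a Notch ligand, measured 10.91 and 8.45 in empty vector and 10.82 and 8.60 in scramble (at least 4.71-fold lower, limma adjusted p = 1.62e-05). The Hedgehog effector gene Gli2 fell (above background on 1 array), as did the co-receptor genes Boc (at least 2.21-fold) and Cdon (-1.63 and -1.39). Of 30 Wnt pathway genes 9 fell (30%) and 1 rose (medians -0.45 and -0.50). Of them 10 exceeded background on 2 or more arrays, as did 8 of the Notch and Hedgehog genes. The co-receptor gene Lrp6 (-2.15 and -1.25), the receptor genes Fzd7 (-1.09 and -1.24) and Fzd8 (-1.88 and -1.08) and the feedback target Axin2 (dim) fell, and the 1 that rose was the ligand gene Wnt10b, named after its values were seen (dim).

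Of 22 TGF-beta genes 5 fell (22.7%) and 2 rose (9.09%). Tgfb3 measured 12.68 and 10.68 in empty vector and 13.05 and 10.95 in scramble (limma adjusted p = 4.18e-05). Of 25 BMP genes 5 fell (20%), among them the ligand gene Bmp6 (dim) and the receptor gene Bmpr2 (-1.59 and -1.63). In this list 2 rose (8%), among them the antagonist gene Fstl3 (2.33 and 1.38). Of 29 other growth factors and receptors 5 rose (17.2%) and 4 fell (13.8%), near the 20.8% and 14.1% of genes above background on 2 or more arrays. The EGF-family ligand gene Ereg rose (at least 2.21-fold), as did Angpt1 and Vegfa, and Pdgfd fell (above background on 1 array). Of 23 contractile genes 6 fell (26.1%), with Synpo2 (above background on 1 array) and Tagln (-1.14 and -1.06). Acta2, named after its values were seen, had differences of 0.14 and -0.07. Of 22 YAP, TEAD and SRF targets 5 fell (22.7%) and 1 rose, and the standard YAP targets Ccn1 and Ccn2, chosen in the same way, did not pass. In the cytoskeleton list 7 of 23 rose, led by Tuba4a (2.23 and 2.002), and 5 fell. Tubulin genes are close copies and their separation on the array is uncertain. Without the vector term 6, 4 and 6 immediate-early, Wnt, and Notch and Hedgehog genes were called lower, and with empty vector replicate 1 also left out 6, 3 and 5.

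Redox genes split in both directions. Of 25 genes of the Nrf2 and glutathione list 7 rose (28%) and 8 fell (32%). Among all genes above background on 2 or more arrays 20.8% rose and 14.1% fell. Srxn1, which repairs oxidised peroxiredoxins, measured 7.68 and 10.53 in empty vector and 8.83 and 10.72 in scramble, and Gsr, glutathione reductase, 10.03 and 11.62 in empty vector and 10.27 and 11.73 in scramble, both higher (limma adjusted p = 3.16e-05 and 0.000458). Gstt1, a glutathione transferase, measured 13.46 and 9.57 in empty vector and 12.33 and 10.03 in scramble and was lower, as was Gpx3. Hypoxia-response genes were split as well, with 6 of 21 higher and 4 lower: Stc2 rose (dim), and Mxi1, a Myc antagonist, fell (-2.34 and -1.90).

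Inflammatory and interferon genes changed singly. Of 33 chemokines and cytokines 6 rose (18.2%) and 3 fell (9.09%). Of all genes 10.3% rose and 8.34% fell, and of those above background on 2 or more arrays 20.8% and 14.1%. With Cxcl5 rose Ptgs2, which encodes cyclooxygenase-2 (1.89 and 1.03), and Cxcl1, a ligand of the receptor that binds Cxcl5 and dim here (5.15 and 7.32 in empty vector and 6.21 and 8.16 in scramble). Cxcl16 fell but was dim. Of 20 NF-kB genes 2 rose (10%), Nfkbiz (dim) and Bcl3 (1.25 and 1.08), which are both co-factors of the p50 subunit. In this list 1 fell (5%), Birc3 (-1.32 and -1.28). Of 16 complement genes 6 fell, with the protease genes C1s1 (-2.77 and -1.47) and C1ra (-2.44 and -1.08) and the inhibitor gene Cd55 (dim), and C3ar1 rose. In the chemokine and complement lists 12 and 6 members exceeded background on 2 or more arrays.

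Of 39 interferon-stimulated genes 8 rose and 2 fell (medians 0.12 and 0.34). The share that rose was 20.5%, against 20.8% of genes above background on 2 or more arrays. The double-stranded RNA sensor Eif2ak2 rose (1.51 and 1.26), and Oas2 and Oas1a, of the same function, rose but were dim. Ifit3, which has a near-identical copy, fell (-3.16 and -1.66). The second to fall was Gbp2, named after its values were seen (at least 1.9-fold). With each array centred on its negative controls the split was 4 higher and 6 lower, so this list has no settled direction. Of 16 genes of MHC class I and peptide loading 1 rose (6.25%) and 3 fell (18.8%, against 14.1% of genes above background on 2 or more arrays).

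Both progenitor lists of the adipose lineage held falls and 0 rises. Of 18 surface markers 3 rose (16.7%) and 4 fell (22.2%). Cd34 measured 13.72 and 12.44 in empty vector and 12.86 and 11.81 in scramble, and Thy1 was at least 1.54-fold lower. Alcam (2.15 and 0.93) and Nes, nestin (dim), rose with Cd44. Of 16 genes of committed preadipocytes 7 fell and 0 rose (medians -0.77 in empty vector and -0.43 in scramble). The share that fell was 43.8%, against 8.34% of all genes and 14.1% of genes above background on 2 or more arrays. They included Mgp, matrix Gla protein, at 14.63 and 10.96 in empty vector and 12.10 and 10.74 in scramble. Cygb, cytoglobin, fell as well, at 12.30 and 10.02 in empty vector and 11.48 and 10.01 in scramble (limma adjusted p = 0.000296 for Mgp and 0.000164 for Cygb). Of 17 genes of the Dpp4 progenitor state 5 fell (29.4%, against 8.34% of all genes) and 0 rose, with Tek, an angiopoietin receptor (dim), and Cd55. Of this list 3 exceeded background on 2 or more arrays. In the fit without a vector term 3 genes of each progenitor list were called lower.

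Of 27 adipogenic and adipocyte genes 6 fell (22.2%, against 14.1% of genes above background on 2 or more arrays) and 1 rose (3.7%). The lipase gene Pnpla2 measured 11.30 and 9.20 in empty vector and 10.57 and 9.04 in scramble, and Dlk1, a preadipocyte marker, 12.56 and 10.88 in empty vector and 12.88 and 11.18 in scramble (limma adjusted p = 0.000153 and 0.000193). Pparg, the master regulator of fat cells and named after its values were seen, did not pass (0.37 and 0.13). Of 24 osteogenic and chondrogenic genes 0 rose and 1 fell, Col10a1, which was dim. Of 26 Hox genes, which mark the position of origin, 4 rose and 0 fell, and the leading one, Hoxb6, was dim. The share that rose was 15.4%, against 10.3% of all genes and 20.8% of those above background on 2 or more arrays. Of these Hox genes 5 exceeded background on 2 or more arrays.

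Agreement between vectors differed by program. Of the 50 program lists 43 had medians of the same sign in both vectors, 21 higher and 22 lower, and 15 reached 0.5 in both. Of these 15, 11 were higher and 4 lower in replicate 2, and 13 had the larger median in empty vector. The lower 4 were the small leucine-rich proteoglycans, the IGF system, the lysosome list and the quiescence list. Medians were nearly equal in both vectors for the IGF system (-1.46 and -1.39), Notch and Hedgehog (-0.47 and -0.47), translation factors (0.58 and 0.59) and Wnt (-0.45 and -0.50). In the Notch and Hedgehog and the Wnt lists 8 of 20 and 10 of 30 members exceeded background on 2 or more arrays. With the filter on dim genes their medians of the mean difference moved from -0.42 to -1.27 and from -0.45 to -0.79. Medians were far apart for Atf4 targets (1.22 and 0.20), cholesterol synthesis (1.43 and 0.47), proteoglycans (-2.56 and -1.26) and repair (3.05 and 1.98). Since each vector had 1 array per replicate, these differences in size between vectors could not be tested, and over all genes the 2 replicate 1 arrays stood further apart than the 2 replicate 2 arrays (SD 0.55 against 0.33).

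**Figure D5:**
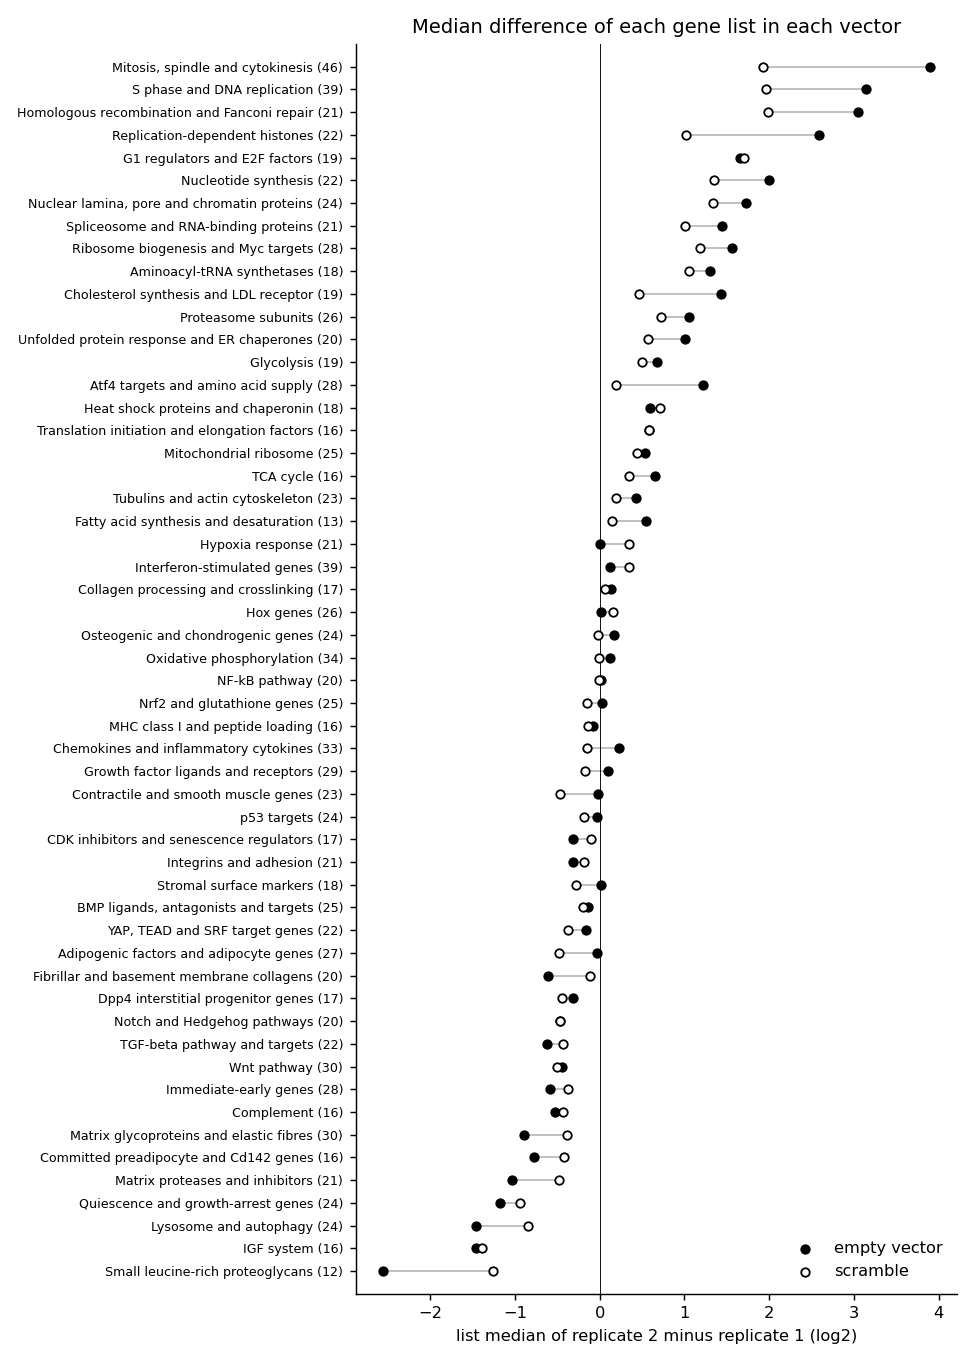
Median replicate 2 minus replicate 1 difference (log2) of each of the 4 cell-cycle and 50 program lists in empty vector (filled) and scramble (open), sorted by the median of the mean difference, with the number of measured members in brackets. Open points lie nearer 0 than filled points for most lists at the top of the plot, but not for G1 regulators and E2F factors (1.66 in empty vector and 1.70 in scramble). The IGF system is among the lists with points close together.

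Of 19505 genes 6061 had differences of opposite sign in the 2 vectors, and 4 of these were past 1 in both. Lrp11, an LDL receptor relative, measured 11.06 and 8.30 in empty vector and 8.89 and 10.38 in scramble. Klf10, a TGF-beta-induced early gene, measured 10.89 and 9.86 in empty vector and 8.38 and 9.87 in scramble. These 2 genes were lower in empty vector and higher in scramble by 1 or more, and the 2 that went the other way, Vmn1r73 and Vmn2r39, were below background on all arrays. Below that size, Dio3, a thyroid hormone deiodinase, measured 9.14 and 11.49 in empty vector and 12.48 and 11.77 in scramble. For Dio3 and Klf10 the 2 replicate 1 arrays stood further apart than the 2 replicate 2 arrays.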

How the data were processed

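Total RNA was profiled on biotin-labelled Affymetrix mouse arrays. The authors deposited log2 values, 1 per array for each probe set. The submitters' processing notes name RMA, which corrects background, normalizes arrays and summarises probes, and Affymetrix Expression Console 1.4.1.46. RMA equalises the arrays, so a change of total RNA per cell is lost. No source used here gives the genome build of the probe sets. The 4 control arrays were used and the 4 arrays of the Irf7 hairpin were not.

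Probe sets without a symbol (9274) were left out. All 19572 gene identifiers matched RefSeq (GRCm38.p6), used for symbols and promoters only. For 55 genes with several probe sets the brightest was kept. These values were modelled with R 4.3.3 and limma 3.58.1 with terms for vector and replicate (1 residual and 13.8 prior degrees of freedom) and adjusted by Benjamini-Hochberg over 19505 genes. An SE is limma's moderated standard error. Arrays have no read depth, and their number limits the precision. An "at least" fold sets the mean of the bright replicate against the lowest signal above background on the dim arrays.

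Gene lists (61, of 1366 symbols) were written from general knowledge; 1238 matched by symbol, 26 by an older histone or enzyme symbol, and 102, among them Pdgfra and Ly6a, were not analysed here. The members, lists and comparison were chosen with earlier results of these data known. Named genes were the 15 largest rises and falls by the smaller within-vector difference, up to 4 per list, the 3 strongest opposite differences each way, and Irf7, Mki67 and stromal markers. Predicted genes, small RNAs and receptor families were left out of the rankings. Since the ranking used these 4 arrays, replicates that do not overlap in a ranked gene are no independent support.

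The fit was also run on simulated data of the same size, with 3639 changed genes, the number called in the main fit. It called 85.2% of those shifted by 1 (log2), and 5.72% of its calls were false. The simulated shifts were equal in both vectors, genes were independent, there was no offset between replicates, and variances came from the prior fitted here. The real differences were mostly larger in empty vector, so these shares are not error rates of the calls above. With 200 changed genes these were 47.0% and 14.2%, since the prior was then estimated less well from 1 residual degree of freedom. Alternatives were other scalings and filters, other fits, and each array left out in turn.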

Additional observations from a re-analysis of the deposited data

Results flagged for a closer look

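Opposite signs in the 2 vectors were common, at 6061 of 19505 genes and in the medians of 7 of 50 program lists. Singled out here are the 6 ranked genes with the largest such differences and 1 list whose medians were both past 0.1 in size. Replicate 2 minus replicate 1 was 0.77 in empty vector and -0.81 in scramble for Lbh, a transcriptional cofactor, and 0.72 and -0.75 for Cnn1, calponin. It was 2.35 and -0.71 for Dio3. The opposite held for Lrp11 (-2.76 and 1.49), Klf10 (-1.04 and 1.48) and Cic, a repressor of ETS genes (-0.58 and 0.87). The median of the chemokine and cytokine list was 0.23 in empty vector and -0.15 in scramble. With 1 array per vector and replicate the difference between vectors was not tested for any of these. The genes were ranked for opposite signs among 19505, so their signs are a description.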

How the results depend on the processing

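The 3639 calls (2013 higher, 1626 lower) depended on which arrays entered and on the vector term. A fit without the vector term called 1614 genes (970 higher, 644 lower), all among the 3639. Leaving out 1 array at a time, which also drops that term and so changes both, gave 0 to 3913 calls, 0 to 2118 higher and 0 to 1795 lower, with 0 without either replicate 2 array. Centring on the negative controls gave 1110 higher and 2979 lower calls and moved the median of all genes from -0.04 to -0.36, and a filter on dim genes left 1024 lower calls of 6929 genes tested. For differences past a threshold in both vectors, a threshold of 0.5 gave 4127 genes and one of 2 gave 240, against 1561 at 1. Centring on the negative controls turned that split to 530 higher and 1204 lower, from 929 and 632. Cyclic loess (2886 calls), quantile normalization (3024), averaging probe sets per gene (3625), testing every probe set (3686) and trend with robust fitting (3522) stayed within 1.5 times of the total. The cause of these shifts was not tested. Of 41 named genes all kept direction and call under cyclic loess, quantile normalization and centring on the negative controls. Without either replicate 2 array all 32 called ones lost their call. Klf10 reversed without scramble replicate 1, to -1.03, from 0.22. List medians changed sign in 8 of 61 lists with negative-control centring, 5 with cyclic loess and 7 with quantile normalization, among them interferon-stimulated genes, respiratory chain, NF-kB, Nrf2 and chemokines. No paired analysis was possible by replicate number, because that number is itself the comparison. The arrays were paired by vector, as a term of the fit.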
